A study of Mus musculus with 2 samples.

Results

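The Ceacam genes, a family of adhesion molecules, were compared between small-intestinal crypts of mice in which Lpcat3 was deleted from the epithelium and crypts of control mice. The group holds 5 genes, Ceacam1, Ceacam2, Ceacam10, Ceacam18 and Ceacam20, of the 18193 genes that the array names. They were chosen by gene symbol with their ratios between the arrays already known, so those ratios are a description and carry no test. The probe annotation gave these 5 genes 16 probe sets, of which 2 list Ceacam1 and Ceacam2 together, and every one of the 16 is described. Lpcat3 encodes an enzyme that puts polyunsaturated fatty acids into membrane phospholipids.

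Knockout mice were Lpcat3 F/F, Villin-CreERT2, and control mice were Lpcat3 F/F without the Cre transgene. Villin-CreERT2 is a Cre recombinase that tamoxifen switches on, driven by the villin promoter in the intestinal epithelium, so the floxed gene is cut in epithelial cells and not in lymphocytes or stroma. All mice carried the floxed alleles, were 8 to 10 weeks old and received 1 mg of tamoxifen a day for 5 days, and crypts were collected 2 weeks afterwards. RNA of 5 mice was pooled for each genotype and each pool was hybridised to 1 Affymetrix array, which leaves no replicate, no test of genotype and no p-value. Genotype, Cre transgene, pool and array cannot be told apart. Fewer cells of a type and less RNA per cell also cannot be told apart in pooled tissue RNA.

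CEACAM proteins are cell adhesion molecules of the immunoglobulin superfamily and belong to the carcinoembryonic antigen family. In the intestine several of them sit in the apical membrane and the microvilli of epithelial cells, where they bind each other and bacteria. CEACAM1 carries inhibitory tyrosine motifs that recruit the phosphatases SHP-1 and SHP-2, and is also made by activated lymphocytes and by blood vessel cells. CEACAM20 has a cytoplasmic tyrosine motif that Src family kinases phosphorylate and to which the kinase SYK binds, whereas mouse Ceacam10 encodes a secreted protein without a membrane anchor.

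The promoters of Ceacam10, Ceacam1 and Ceacam2 are shown because parts of these 3 windows are closely related while the genes had different ratios on these arrays. Each is a RefSeq sequence of GRCm38.p6 that runs 5′ to 3′ from 250 bases before the annotated start to 50 after it. Ceacam10 has 2 such windows, Ceacam1 and Ceacam2 have 1 each. For Ceacam10 the window whose start lies nearest to the 5′ edge of the gene was used, and the other was not aligned. In the Ceacam1 sequence the capitals mark the match to CACGTG. In the Ceacam10 and Ceacam2 sequences the capitals mark the bases that differ from Ceacam1 within the stretch that aligns with it. The Ceacam10 promoter lies at chr7:24776917-24777216 on the plus strand, that of Ceacam1 at chr7:25477576-25477875 on the minus strand, and that of Ceacam2 at chr7:25539955-25540254 on the minus strand.
Ceacam10: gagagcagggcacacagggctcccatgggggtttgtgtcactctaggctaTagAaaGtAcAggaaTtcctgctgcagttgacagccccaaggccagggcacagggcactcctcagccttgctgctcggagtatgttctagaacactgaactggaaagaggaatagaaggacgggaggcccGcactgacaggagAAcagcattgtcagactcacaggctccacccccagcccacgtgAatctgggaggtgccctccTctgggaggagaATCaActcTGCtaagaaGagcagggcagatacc
Ceacam1: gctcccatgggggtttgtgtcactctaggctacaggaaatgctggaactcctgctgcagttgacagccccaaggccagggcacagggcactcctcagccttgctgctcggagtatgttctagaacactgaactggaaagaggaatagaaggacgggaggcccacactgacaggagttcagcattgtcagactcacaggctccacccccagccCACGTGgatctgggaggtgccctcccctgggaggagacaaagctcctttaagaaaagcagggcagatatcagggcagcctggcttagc
Ceacam2: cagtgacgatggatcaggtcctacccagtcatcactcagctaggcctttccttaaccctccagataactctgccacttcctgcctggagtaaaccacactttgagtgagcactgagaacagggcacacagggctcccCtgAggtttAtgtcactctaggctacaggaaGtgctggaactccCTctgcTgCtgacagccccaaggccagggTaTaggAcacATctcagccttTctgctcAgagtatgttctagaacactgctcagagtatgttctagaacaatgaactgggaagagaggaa

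The Ceacam10 and Ceacam1 promoters aligned over 280 bases without a gap, and 261 of these (93.2%) were identical. Ceacam2 and Ceacam1 aligned over 129 columns with 87.6% identity, bases 1 to 129 of the Ceacam1 window matching bases 132 to 259 of the Ceacam2 window, counted from the 5′ end. The stretch around the Ceacam1 start, which holds its CACGTG, lies past base 129 and so outside that alignment. Whether Ceacam2 has a counterpart of it beyond the end of its window was not examined. Ceacam2 and Ceacam10 aligned over 147 columns with 85.7% identity. In the other 7 of the 10 pairs, those with Ceacam18 or Ceacam20, the best local alignment spanned at most 62 columns. The letters CACGTG, a motif that basic helix-loop-helix factors such as USF bind, were found once in the Ceacam1 window, 38 bases before the start, and once in the Ceacam10 window, 20 bases before it. Either strand was searched, and 7.17% of 32544 RefSeq promoter windows of the same length hold these letters. The windows of Ceacam2, Ceacam18 and Ceacam20 do not hold them, and sequence outside the windows was not searched. TATAAA, the letters of a TATA box, occurred in the Ceacam18 window only, where 2 matches were found, against 13.6% of all windows with at least 1. These matches lay 154 and 112 bases before the start, and whether either acts as a TATA box was not tested. GGGCGG, a core that SP1 binds, was in none of the 5 windows and in 35.9% of all.

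A probe set's value is its MAS5 signal, a linear brightness that summarises its probes after each array is scaled to a common target. Median signal was 90.5 on the knockout array and 95.4 on the control array. Signals under 92.9, the median of all values of both arrays, were treated as not above background and raised to that floor before a ratio was taken, so that a gene above it on 1 array has a bound. Where a gene was read by several probe sets, their log2 ratios varied with an SD of 0.28 (4582 genes), an error that covers neither mice nor pools. Lpcat3 itself had a signal of 928 in the knockout pool and 4691 in the control pool, 5.06-fold lower in the knockout. As a gauge of RNA quality, the Actb control probe sets had a 3′ signal over 5′ signal of 1.64 in the knockout pool and 1.98 in the control pool. All 10 epithelial markers looked up were above the floor on both arrays.

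Of the 16 Ceacam probe sets, 15 exceeded the floor on 1 array or both and 1 did so on neither. Lower by 1.5-fold or more in the knockout were 3 of the 15, for Ceacam10 and Ceacam20, where 8.22% of all 24011 probe sets above the floor were that low. Higher by 1.5-fold or more were 2, for Ceacam2 and Ceacam18, where the share over all probe sets was 5.3%. The remaining 10 lay within 1.5-fold, and each of these lists Ceacam1. Counted as genes, 2 were lower, 2 higher and 1 within 1.5-fold, beside 8.74% lower and 4.76% higher among all 11496 genes measured. The median log2 ratio was -0.03 over the 15 probe sets and -0.04 over all 24011.

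**Figure D1:**
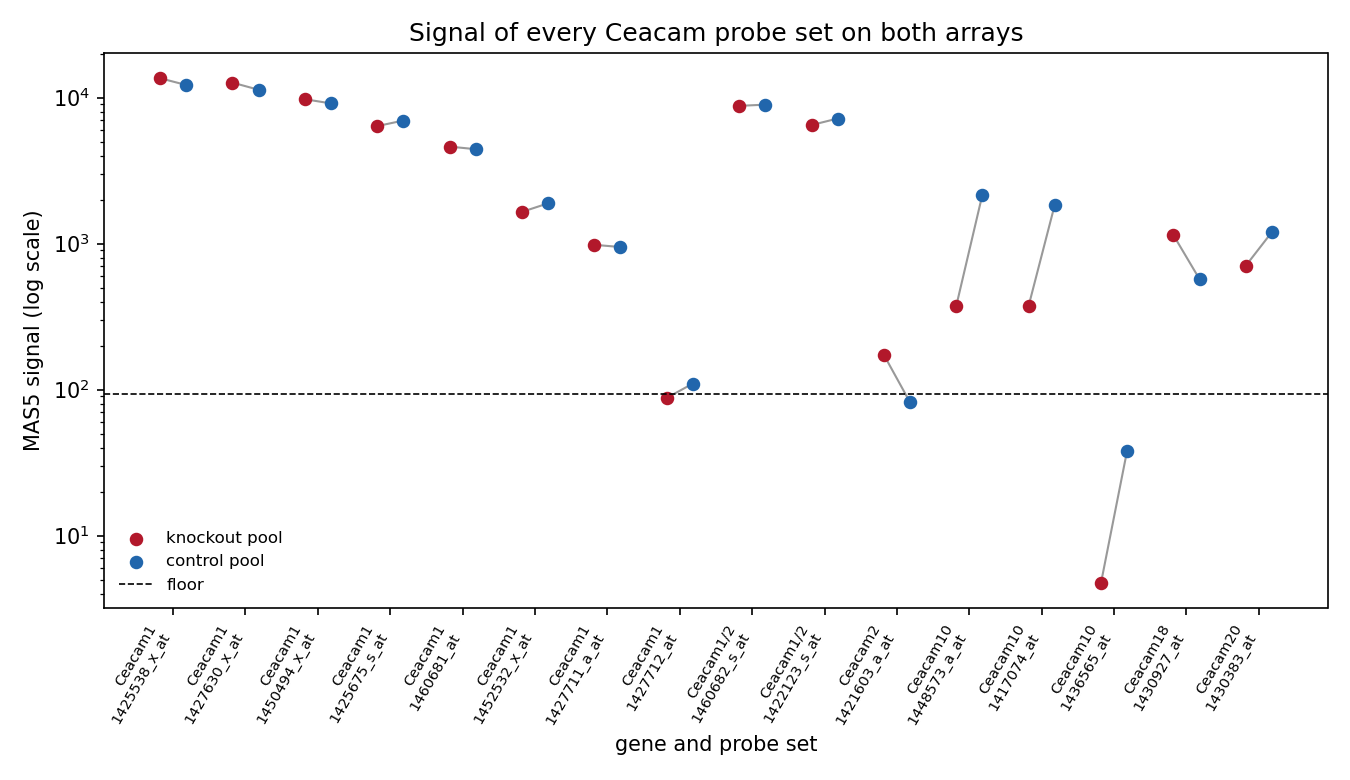
MAS5 signal (log scale) of each of the 16 Ceacam probe sets in the knockout pool (red) and the control pool (blue), 1 array each, joined by a line; the dashed line is the floor of 92.9. The lines of the Ceacam1 probe sets are nearly level, while both bright Ceacam10 probe sets stand at about 375 in the knockout pool, against 2160 and 1843 in the control pool.

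Ceacam10, the secreted member, had the largest ratio of the group. Its brightest probe set, 1448573_a_at, had a signal of 375.1 in the knockout pool and 2160 in the control pool, and 1417074_at had 375.9 in the knockout pool and 1843 in the control pool. The log2 ratios were -2.53 and -2.29, or 5.76-fold and 4.90-fold lower in the knockout. These 2 probe sets differed from each other by 0.23, less than the 0.39 that the SD between probe sets gives for such a difference. The last Ceacam10 probe set, 1436565_at, had 4.77 in the knockout pool and 38.2 in the control pool, both under the floor, so no ratio is read from it. Among the 11496 genes measured, ordered from the lowest ratio, Ceacam10 stood at place 10.

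The genes nearest to Ceacam10 in signal on both arrays, out of 10448 searched, were Trgv4, Itgae and Cyp2c29. Nearness is the distance between points whose coordinates are the log2 signals of the 2 arrays, and 2 arrays leave this a description of size and level. Trgv4, a T cell receptor gamma variable segment, lay at a distance of 0.22, with 327 in the knockout pool and 2329 in the control pool. Itgae, the integrin that holds intraepithelial lymphocytes to the epithelium, lay at 0.43, with 446 in the knockout pool and 1689 in the control pool. Cyp2c29, a cytochrome P450, lay at 0.54, with 280 in the knockout pool and 2744 in the control pool.

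Markers of T and natural killer cells, crypt base stem cells and Paneth cells were mostly lower in the knockout, as was Ceacam10. Other lists were not, with median log2 ratios of 0.08 for epithelial, 0.12 for enterocyte and 0.98 for B and plasma cell genes. Of 20 T and natural killer cell genes with a probe set, 15 were measured, 12 of them above the floor on both arrays. All 15 had lower signals in the knockout, 13 past 1.5-fold. Cd7, Cd247 and Xcl1 were above the floor in the control pool alone, so they could only come out lower. The median log2 ratio was -2.03 (-1.28 with a pseudocount in place of the floor). Cd8b1, Cd2, Cd5, Klrk1 and Cd4 were below the floor on both arrays. The summed signal of all 20 was 10949 in the knockout pool and 47988 in the control pool. Klrd1 (-3.21), a natural killer receptor chain, and Cd3g (-3.00), a chain of the T cell receptor complex, were among the lowest, and Cd7 was at least 10.3-fold lower. The 12 crypt base stem cell genes were all lower, 8 by at least 1.5-fold, with a median of -0.81. Tnfrsf19 was above the floor in the control pool alone, so it could only come out lower. The summed signal of the 12 was 41811 in the knockout pool against 68900 in the control pool. Lgr5, the receptor that marks these stem cells, was lowest, at -2.25. Of 8 Paneth cell genes 5 were lower by 1.5-fold or more (median -0.87), with a summed signal of 70758 in the knockout pool and 114811 in the control pool. Habp2 went the other way, at 0.43, and the Lyz1 probe sets were at -0.27 (the brightest), -0.18 and -0.04. Among all genes measured, 8.74% were lower by at least 1.5-fold. The part of any of these cells in the ratios of Ceacam10 and the other Ceacam genes was not tested.

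Ceacam20, the tyrosine-motif member of the microvilli, was read by 1 probe set, 1430383_at. Its signal was 706 in the knockout pool and 1199 in the control pool, a log2 ratio of -0.76, or 1.70-fold lower in the knockout. This is 2.74 times the SD between probe sets, and 4.95% of all genes measured had a ratio as low or lower. No second probe set of Ceacam20 is annotated to compare it with.

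Ceacam18, a member whose function is little known, stood on the other side. Its 1 probe set, 1430927_at, had a signal of 1142 in the knockout pool and 571 in the control pool. The log2 ratio was 1.00, or 2.00-fold higher in the knockout, which is 3.58 times the SD between probe sets. A ratio that high or higher was found for 1.41% of the genes measured.

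Ceacam2, the nearest relative of Ceacam1 and its neighbour on the chromosome, was dim. The probe set of its own, 1421603_a_at, had 173 in the knockout pool and 81.9 in the control pool, which is under the floor. It was therefore at least 1.86-fold higher in the knockout pool (bound on the log2 ratio, 0.90), on signals close to background, and it had no value with the floor at the 70th percentile. The 2 probe sets that list Ceacam2 together with Ceacam1 were nearly equal in both pools. Their signals were far brighter, so they cannot decide whether Ceacam2 differed. 1460682_s_at had 8776 in the knockout pool and 8945 in the control pool (-0.03), and 1422123_s_at had 6484 in the knockout pool and 7187 in the control pool (-0.15). How much of their signal comes from each gene cannot be read from the arrays.

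**Figure D2:**
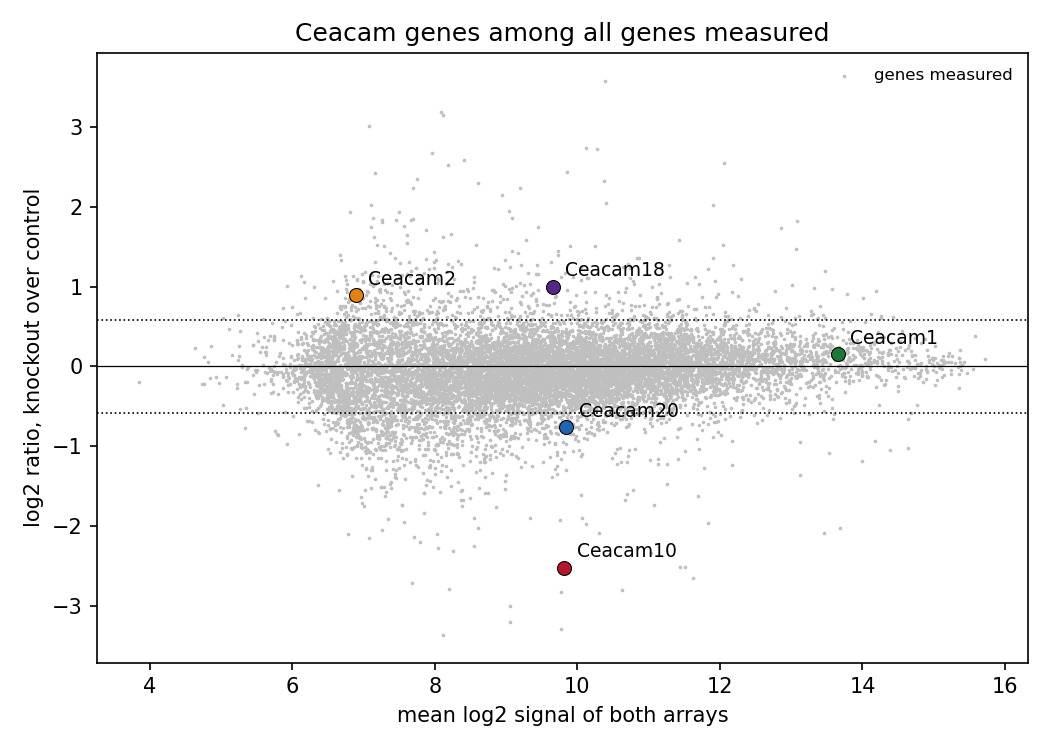
Log2 ratio, knockout over control, against the mean log2 signal of both arrays for the 11496 genes measured (grey, brightest probe set of each), with the 5 Ceacam genes in colour; dotted lines mark 1.5-fold. Ceacam10 lies at -2.53 and Ceacam18 at 1.00, Ceacam2 is a bound near the floor, and Ceacam1 lies within the dotted lines.

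Ceacam1, the receptor with inhibitory motifs, was nearly equal in both pools by each of its probe sets. Its brightest, 1425538_x_at, had 13573 in the knockout pool and 12198 in the control pool, a log2 ratio of 0.15. The next, 1427630_x_at, had 12662 in the knockout pool and 11316 in the control pool (0.16). The 7 probe sets that name Ceacam1 alone and were above the floor on both arrays had ratios between -0.19 and 0.16, 5 above 0 and 2 below, and all 7 were smaller than the SD between probe sets. The lowest of these 7 was 1452532_x_at, with 1649 in the knockout pool and 1886 in the control pool.

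The remaining Ceacam1 probe sets fill in this range. For 1450494_x_at the signals were 9746 in the knockout pool and 9122 in the control pool, and for 1425675_s_at 6381 in the knockout pool and 6960 in the control pool. The 1460681_at signals were 4615 in the knockout pool and 4432 in the control pool, and those of 1427711_a_at 981 in the knockout pool and 947 in the control pool. A probe set whose identifier has _s_at or _x_at at its end may also bind related transcripts. This holds for 5 of the 7, and the 2 without it were at 0.05 and 0.06. The dimmest probe set, 1427712_at, had 87.7 in the knockout pool, under the floor, and 110 in the control pool, which makes it at least 1.18-fold lower. The SD of the 7 ratios was 0.14, where 275 genes with at least 5 such probe sets had a median SD of 0.26.

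Of 24 other carcinoembryonic antigen family genes looked up, 13 had a probe set of their own and the other 11, among them Ceacam3, Ceacam5, Ceacam16, Ceacam17 and Ceacam19, were not analysed here. Of the 13, 11 were below the floor on both arrays. All 6 of the 13 that are Ceacam genes, Ceacam9 and Ceacam11 to Ceacam15, read by 11 probe sets, were among them, with no signal above 70.7. The 2 genes above the floor were of the pregnancy-specific glycoprotein branch. Psg23 had 226 in the knockout pool and 199 in the control pool (0.19), and Psg28 had 205 in the knockout pool and 202 in the control pool (0.02).

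Partners of CEACAM proteins in signalling were looked up next, 29 kinases, phosphatases, adaptors and binding partners. Of 22 with a probe set of their own, 19 were above the floor, and 16 of these lay within 1.5-fold while 3 were lower and none of the 19 higher by that much. Their median log2 ratio was -0.05, against -0.04 over all genes measured, and -0.20 without _s_at and _x_at probe sets. The phosphatase genes Ptpn6 (SHP-1), with 1100 in the knockout pool and 933 in the control pool (0.24), and Ptpn11 (SHP-2), with 2304 in the knockout pool and 2284 in the control pool (0.01), lay within the SD between probe sets. The other probe set of Ptpn6 went the other way, at -0.29.

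Syk and the Src family kinases looked up did not share a direction. Src had 692 in the knockout pool and 539 in the control pool, a log2 ratio of 0.36, and 0.42 by its other probe set. Syk had 362 in the knockout pool and 283 in the control pool, a log2 ratio of 0.35, and 0.41 by its other probe set. The other Src family kinases looked up and measured were Yes1, whose 4 probe sets gave -0.0027 (the brightest), -0.71, 0.27 and 0.44, Fgr, at -0.23 and -0.34, and Fyn, at -1.40 and -1.23. Grb2, an adaptor of receptor signalling, was also among the 3 highest, at 0.36, but at -0.46 by its other probe set. Ptprh, the gene of the microvillus phosphatase SAP-1 that acts on CEACAM20, had no probe set of its own here and was not analysed.

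Of the 3 partners with the lowest ratios, Fyn, which T cells also make, had 108 in the knockout pool and 285 in the control pool. Pik3r1, a regulatory subunit of phosphoinositide 3-kinase, had 874 in the knockout pool and 1565 in the control pool (-0.84), with its next probe set at -0.46. Insr, the insulin receptor, which CEACAM1 helps to internalise in liver, had 794 in the knockout pool and 1345 in the control pool (-0.76), its other probe set reaching only 96.0 in the control pool. Havcr2, which encodes TIM-3, a CEACAM1 partner on T cells, was below the floor on both arrays, as were Tlr4 and Itgb3.

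Genes of the microvilli, in which CEACAM1 and CEACAM20 lie, were close to equal in both pools. Of 17 measured, 16 lay within 1.5-fold and 1 was lower, with a median log2 ratio of 0.12. Pdzk1, a scaffold of apical transporters, was that gene, with 1024 in the knockout pool and 1809 in the control pool (-0.82). Espn (0.46), Ezr (0.45) and Slc9a3r1 (0.38), which bundle actin or tie it to the apical membrane, were highest, with Ezr at 1.17 by its other probe set, and Pls1 (-0.34) and Ptprj (-0.28) followed Pdzk1 at the low end. The cadherin genes Cdhr2 (-0.07) and Cdhr5 (0.21), which link microvilli to each other, lay within the SD between probe sets.

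Genes of the other cells that could carry Ceacam transcripts were read beside these. The 10 epithelial genes all lay within 1.5-fold (median 0.08), with a summed signal of 163333 in the knockout pool and 147322 in the control pool, Krt20 being highest at 0.44 and Cdx1 lowest at -0.43. Of 16 enterocyte genes 3 were higher and 2 lower by 1.5-fold or more (median 0.12), with a summed signal of 304752 in the knockout pool and 264440 in the control pool. Rbp2 (1.20) and Mttp (0.66), genes of retinol and lipid transport, were the highest, and Cubn, at least 4.45-fold lower, and Lct (-1.36) the lowest. All 10 B and plasma cell genes measured were higher, 7 by at least 1.5-fold (median 0.98), led by Jchain (2.33). Among all genes measured, 4.76% were that much higher. Only 8 of the 10 were above the floor on both arrays. Pou2af1 and Blk were above it in the knockout pool alone, so they could only come out higher. With the floor at the 70th percentile only 5 genes of the list were measured, 3 of them at least 1.5-fold higher (median 1.71). The summed signal of the list was 21879 in the knockout pool and 6296 in the control pool. Most of it came from Igha, with 16319 in the knockout pool and 4585 in the control pool. Of 8 myeloid genes measured, 1 was higher and 2 lower by 1.5-fold (median -0.38, and -0.15 with the pseudocount), with summed signals of 4553 in the knockout pool and 5779 in the control pool. Of 8 blood vessel genes 6 were below the floor on both arrays, among them Pecam1 and Cdh5. The part of these cells in the ratio of any Ceacam gene was not tested.

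**Figure D3:**
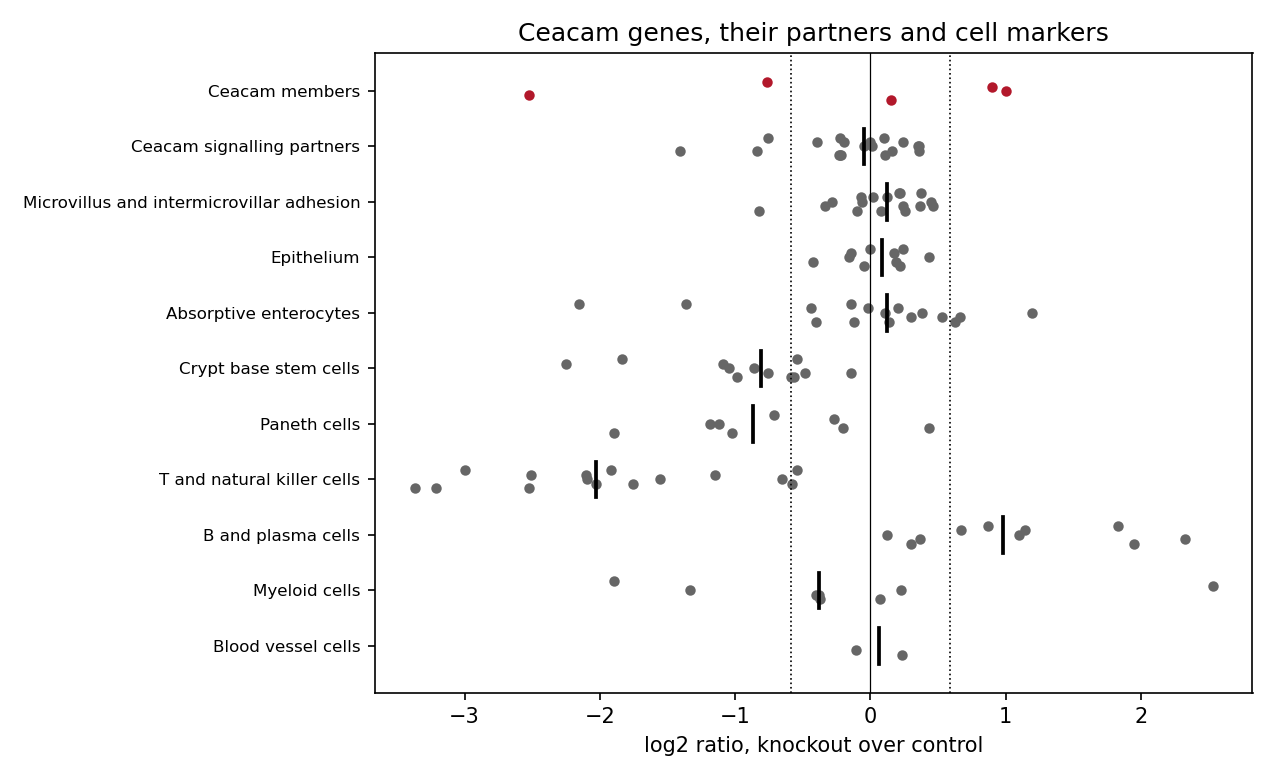
Log2 ratio, knockout over control, of each measured gene (points, spread vertically so that they can be told apart) in the Ceacam group (red) and in 10 lists, with the list median as a black bar and dotted lines at 1.5-fold. The 5 Ceacam genes span -2.53 to 1.00, partners and microvillus genes have medians of -0.05 and 0.12, and T and natural killer cell genes a median of -2.03.

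All 5 Ceacam genes lie on chromosome 7 in RefSeq, and the measured genes beside them on the chromosome were read as well, a choice made by position after the Ceacam values were known. Up to 2 measured genes were taken on each side with at most 10 others in between, which gave 14 genes. Of these, 12 lay within 1.5-fold, with a median log2 ratio of -0.04. Cd177, a neutrophil surface protein gene next to Ceacam10, had 165 in the knockout pool and 222 in the control pool (-0.43), and Rps19, a ribosomal protein gene on its other side, had 21646 in the knockout pool and 23781 in the control pool (-0.14). Ethe1, a mitochondrial sulfur dioxygenase gene also near Ceacam10, was 1 of the 2 past 1.5-fold, at 0.73, and Bckdha, a subunit of branched-chain keto acid dehydrogenase near Ceacam2, was the other, at -0.70. Igsf23, an immunoglobulin superfamily gene next to Ceacam20, had 2300 in the knockout pool and 1620 in the control pool (0.51), on the side of 0 opposite to Ceacam20. Zfp719 (0.0039) and Ctu1 (-0.15), on either side of Ceacam18, lay within the SD between probe sets.

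**Figure D4:**
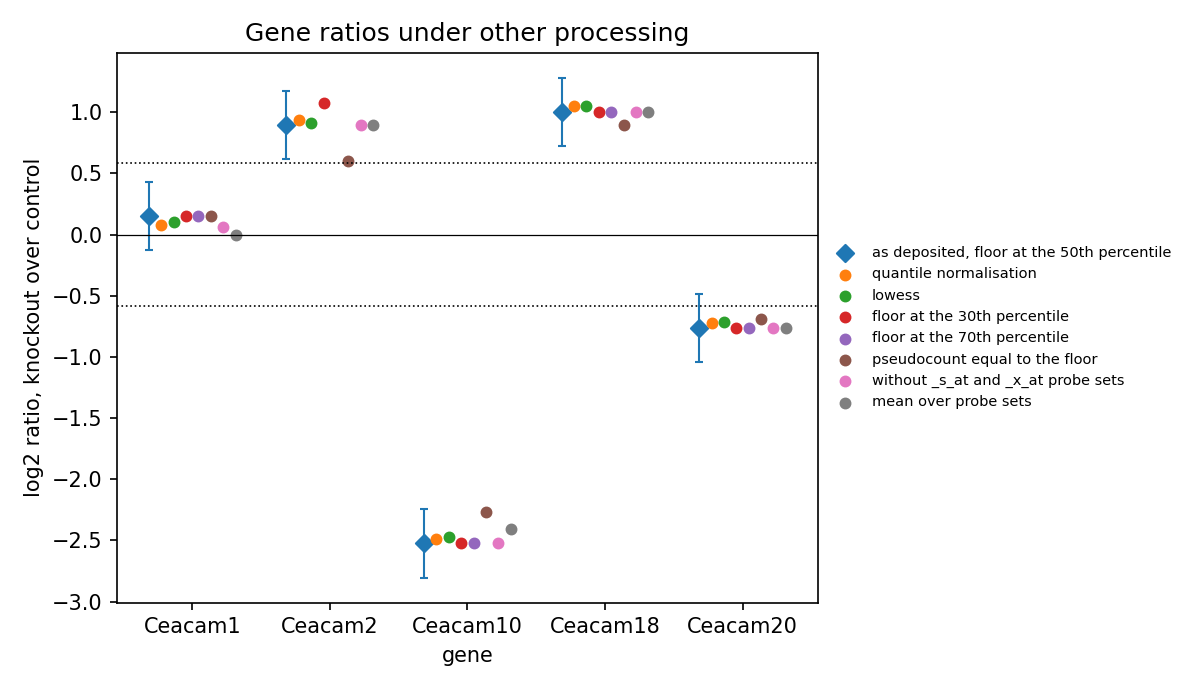
Gene-level log2 ratio, knockout over control, of each Ceacam gene as deposited (diamond, with a bar of ± 1 SD between probe sets, 0.28) and under 7 other settings (circles); the Ceacam2 values, apart from those with the lower floor and the pseudocount, are bounds. Ceacam10 stays between -2.53 and -2.27, Ceacam18 between 0.90 and 1.05 and Ceacam20 between -0.76 and -0.69.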

How the data were processed

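The deposited values are linear signal intensities of 45101 probe sets on 2 arrays, which the authors made with the MAS5 algorithm, per the submitters' processing notes. Neither its version nor its options appear in the sources used here. Total RNA came from a Trizol extraction, per the labels' protocols. The trimmed mean was 500.0 on each array, so the values were used as deposited. The submitters' text gives the array as the smaller A type, whereas the table and its annotation have the 45101 probe sets of the full type. After 64 control probe sets were set aside, 34945 of 45037 had 1 gene symbol, 932 had several and 9160 had none, and 34741 probe sets matched RefSeq (GRCm38.p6) by Entrez identifier and took its symbol.

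The floor of 92.9 is the 50th percentile over both arrays without control probe sets. Tried in its place or beside it were floors at the 30th and 70th percentile, a pseudocount, quantile and lowess scaling, and other choices of probe sets. The log2 ratio is knockout minus control, and a gene is given by its brightest probe set with 1 symbol. With 1 array per group there is no test, and genes are counted at 1.5-fold. Calculations used Python 3.11.15, pandas 2.3.3 and statsmodels 0.14.6, and promoters were aligned locally with Biopython 1.88. The ratio, floor and error steps were tested on simulated data. Precision is limited by having 1 array a group.

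The genes, lists and settings were chosen with earlier results of these data known. Named are the 5 Ceacam genes, Lpcat3 and 5 named partners. Up to 3 highest and 3 lowest genes of each list and the 3 genes nearest to Ceacam10 are also named. Other named genes (Yes1, Fgr, Cdhr2, Cdhr5, Cd8a, genes below the floor and chromosomal neighbours) were chosen after values were seen. The text names part of what this rule allows.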

Additional observations from a re-analysis of the deposited data

How the results depend on the processing

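No paired analysis was possible because there is only 1 array for each genotype, and leaving out an array was not possible either. Of 34 gene-level ratios of Ceacam genes under the alternatives, 33 moved by less than the SD between probe sets, and no ratio past 1.5-fold turned its sign. The exception was Ceacam2, at 0.60 with a pseudocount equal to the floor, and under a 70th-percentile floor it had no value, which left 1 probe set at least 1.5-fold higher. Ceacam1 lay between -0.01 and 0.15. The median of signalling partners was -0.20 without _s_at and _x_at probe sets. That of T and natural killer cell genes was -1.76 with either the 30th or the 70th percentile as the floor and -1.28 with the pseudocount. That of B and plasma cell genes was 1.26 with the 30th percentile, 1.71 with the 70th and 0.76 with the pseudocount. With the pseudocount, myeloid genes had -0.15 and stem cell genes -0.71, and stem cell genes had -0.92 without _s_at and _x_at probe sets. Paneth genes had -1.02 under the higher floor and -1.12 without those probe sets. Beyond what the choice of floor or probe sets itself shows, the cause was not tested. Signals near the floor limit Ceacam2 most.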
